A study of Mus musculus with 15 samples.

Results

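Interferon response genes are the genes a cell transcribes after an interferon binds its receptor, and 36 of them were followed here in the mouse kidney. They were chosen by name: each had to stand alone on an entry of the expression table, that is, on an entry annotated with exactly 1 gene symbol, and 33 of the 36 did so, out of 22180 genes measured in that way. Each of the 33 had a single entry. Oas1a and Gbp2 were present only on entries that they share with a close relative, Oas1g and Gbp2b, and were not used, and Ifi44 had no entry. Of the measured genes, 28 of 30 listed were classed as type I-type and 5 of 6 listed as interferon gamma-type. These 5 were Igtp, Irf1, Psmb8, Psmb9 and Tap1. The 6 gamma-type genes were set by name, and the other 30 made up the type I-type class, Gbp3, Irgm1 and Irgm2 included. The type I-type class is therefore not a sorting by the best-known inducer. The division is not strict, since most of these genes answer to both kinds of interferon.

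The study models TFE3 translocation renal cell carcinoma, in which a chromosomal break fuses the transcription factor TFE3 to a partner such as PRCC. All mice carried the Rosa26-LSL-PRCC-TFE3 knock-in allele, in which a stop cassette keeps the fusion silent until Cre recombinase removes it. Kidneys came from mice with the KSP-Cre transgene (Cre+) and from mice without it (Cre-), at 4 months of age (4 Cre- and 4 Cre+ mice) and at 7 months (3 Cre- and 4 Cre+ mice). KSP-Cre is driven by the promoter of kidney-specific cadherin, a gene of the tubule epithelium, and RNA was taken from flash-frozen kidney, so the arrays hold the other cells of the kidney as well. None of the groups had the Cre transgene alone, so the fusion and Cre itself cannot be told apart as sources of a difference, and sex and strain background were not given in the sources used here.

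Type I interferons bind the receptor of Ifnar1 and Ifnar2, whose kinases phosphorylate Stat2. A complex that holds Stat2 and Irf9 then binds the interferon-stimulated response element (ISRE) in the promoters of antiviral genes. Interferon gamma binds the receptor of Ifngr1 and Ifngr2, and its signal reaches the gamma-activated site (GAS) in promoters such as that of Irf1, a transcription factor that in turn acts on genes of antigen processing. In the kidney both epithelial cells and resident or incoming leukocytes can respond.

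Promoter stretches of 7 members are shown because genes that rose at 7 months (Isg15, Ifit1, Stat2 and Gbp3) and genes that were not called (Ifit3, Rsad2 and Oas3) held the same motif. Sequences are those of RefSeq on build GRCm38.p6, in windows from 250 bases before to 50 bases after the start site, written 5′ to 3′ on the strand of the gene. A window was at hand for 28 of the 36 listed genes and not for Parp14, Zbp1, Dhx58, Mx1, Mx2, Rtp4, Usp18 and Oas2. Capitals mark matches to an ISRE-type motif, GAAA followed after any 2 bases by GAAA, which was searched on both strands and reads TTTC, any 2 bases, TTTC where it lies on the other strand. Overlapping matches run together in the capitals.
Isg15: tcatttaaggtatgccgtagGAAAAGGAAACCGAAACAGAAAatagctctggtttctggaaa
Ifit1: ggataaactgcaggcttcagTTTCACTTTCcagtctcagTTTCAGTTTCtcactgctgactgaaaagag
Ifit3: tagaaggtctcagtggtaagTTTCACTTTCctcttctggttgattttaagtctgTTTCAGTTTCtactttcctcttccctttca
Rsad2: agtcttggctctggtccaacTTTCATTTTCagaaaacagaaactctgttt
Oas3: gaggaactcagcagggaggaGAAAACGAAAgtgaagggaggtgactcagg
Stat2: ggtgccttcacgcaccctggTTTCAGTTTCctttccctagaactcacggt
Gbp3: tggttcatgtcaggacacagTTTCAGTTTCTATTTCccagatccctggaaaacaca

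These stretches lie at chr4:156200855-156200916 (minus strand) for Isg15, chr19:34640765-34640833 (plus) for Ifit1, chr19:34583353-34583436 (plus) for Ifit3, chr12:26456543-26456592 (minus) for Rsad2, chr5:120777705-120777754 (minus) for Oas3, chr10:128270256-128270305 (plus) for Stat2 and chr3:142559979-142560034 (plus) for Gbp3. Isg15 had 3 overlapping matches, Ifit1, Ifit3 and Gbp3 had 2 each, and Rsad2, Oas3 and Stat2 had 1. Over all 27025 genes with a window, 3.99% held the motif. Among the 25 measured members with a window it was held by 15 (60.0%), namely by 14 of 20 type I-type genes and by 1 of 5 gamma-type genes, Igtp. It was held by 10 of the 20 genes that rose in Cre+ kidneys at 7 months and by 5 of the 5 that did not, Ifit3, Rsad2, Oas3, Ifitm3 and Irgm2. The 8 members without a window are type I-type genes that all rose at 7 months. The motif is therefore unknown only among genes that rose, and these 2 counts cannot be compared. A match is a match of letters and not a measured binding site.

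The GAS-type motif TTCNNNGAA, which reads the same on both strands, was held by 9.55% of genes with a window and by 8 of the 25 measured members (32%), 5 of 20 type I-type and 3 of 5 gamma-type. The matches of a pair of gamma-type genes follow, again in capitals, at chr11:53769904-53769952 for Irf1 and chr17:34198078-34198126 for Psmb8, both on the plus strand.
Irf1: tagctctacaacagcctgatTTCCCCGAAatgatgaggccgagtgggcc
Psmb8: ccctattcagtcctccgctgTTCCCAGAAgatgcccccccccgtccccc

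Psmb9, a catalytic subunit of the immunoproteasome, and Tap1, a subunit of the transporter that carries peptides to MHC class I, are transcribed in opposite directions from start sites 225 bases apart. The stretch between them, chr17:34187331-34187555 on the plus strand, is shown because it precedes both genes, and both rose at 7 months. It held neither motif, so it has no capitals.
Psmb9 and Tap1: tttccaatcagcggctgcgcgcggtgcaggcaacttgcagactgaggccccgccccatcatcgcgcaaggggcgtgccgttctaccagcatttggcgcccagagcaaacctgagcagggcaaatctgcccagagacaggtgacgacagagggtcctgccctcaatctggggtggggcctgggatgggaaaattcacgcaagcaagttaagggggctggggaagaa

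Values are log2 expression values of Affymetrix Mouse Gene 2.0 ST arrays as deposited, 1 array per mouse, and a difference of 1 is a change of 2-fold. The 15 array medians lay between 4.40 and 4.55. The kidney label was borne out, since 11 tubule and glomerulus markers had mean levels at the 65.3rd to 99.9th percentile of all genes, and Gpnmb, a known target of TFE3 fusions, was 4.05 to 4.69 in the Cre- kidneys and 10.21 to 12.37 in the Cre+ kidneys. Among the arrays, 4-month Cre+ replicate 1 stood apart from its group: it was the lowest of the 4 Cre+ kidneys in 28 of the 33 members, and it lay above all 4-month Cre- kidneys in 5 members, against 20, 28 and 29 for the other replicates of its group. Gpnmb was also lowest there within the Cre+ group at that age, at 10.21 against 10.82 to 11.07. Among the 7-month Cre- kidneys, replicate 3 was the highest in 25 of 33 members. Precision is limited by 3 or 4 arrays per group, and the table gives no detection calls.

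Nearly all interferon response genes were higher in Cre+ kidneys at 7 months, and few could be called at 4 months. At 7 months 28 of 33 members rose (adjusted p under 0.05 in limma's moderated test over all 22180 genes) and 0 fell, whereas 11.7% of all genes rose and 10.8% fell in the same comparison. The median change of the members was 0.76, beside -0.04 over all genes, and 26 of them had every Cre+ value above every Cre- value, which held for 14.0% of all genes. Leaving out any 1 array left between 19 and 29 members called, the lowest without 7-month Cre- replicate 2. At 4 months 3 of 33 rose (Isg15, Parp14 and Tap1) and 0 fell, beside 2.73% and 0.803% of all genes, although all 33 changes were positive and 18 had an unadjusted p under 0.05. Their median change was 0.38, beside 0.05 over all genes, and 5 had no overlap between groups, beside 6.31% of all genes. Of all genes called at 4 months 77.3% were higher, and 67.7% after quantile normalization or 53.1% after median centring, with 2 and 1 members higher and 0 lower. In whole-kidney RNA a change in the number of cells of a type and a change in the RNA per cell cannot be told apart.

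**Figure D1:**
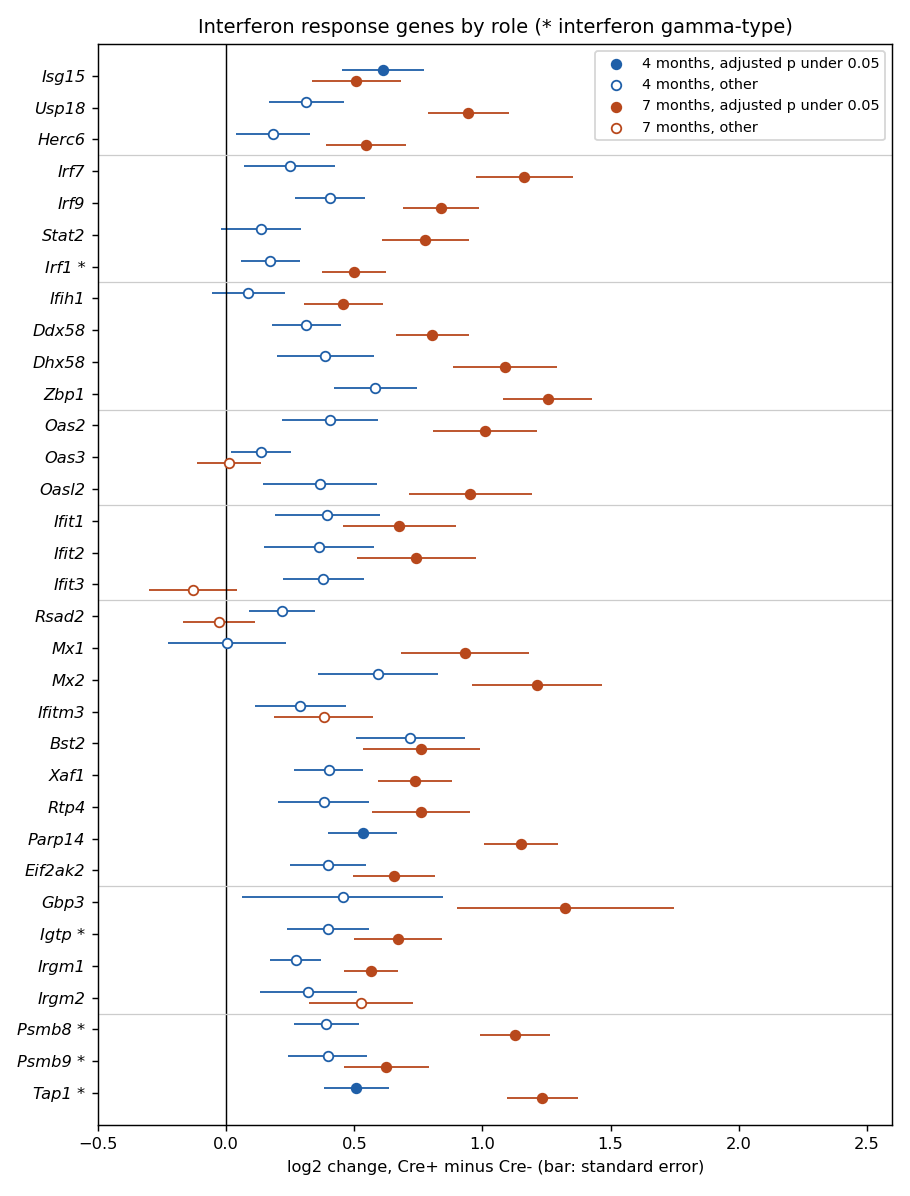
Log2 change of each of the 33 genes, Cre+ minus Cre-, at 4 months (blue) and 7 months (red), with bars for the standard error and filled points for an adjusted p under 0.05. At 7 months 28 of 33 points are filled and the largest change is that of Gbp3 at 1.32, and at 4 months only Isg15, Parp14 and Tap1 are filled.

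The count at 4 months depended on single arrays. Without Cre+ replicate 1, the array that stood apart, 10 members were called: Bst2, Igtp, Isg15, Parp14, Psmb8, Psmb9, Rtp4, Tap1, Xaf1 and Zbp1, with changes from 0.50 for Psmb8 to 0.89 for Bst2 and adjusted p from 0.0048 to 0.0492. That array was singled out by its low values in these same members, so a higher count without it follows from the choice, and over all genes the share called higher went from 2.73% to 4.08%. Without Cre- replicate 1, 3 or 4, or without Cre+ replicate 2, 3 or 4, 0 were called, while 1.67% to 2.41% of all genes were called higher. Without Cre- replicate 2, or without 7-month Cre- replicate 3 or Cre+ replicate 1, 2 were called.

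**Figure D2:**
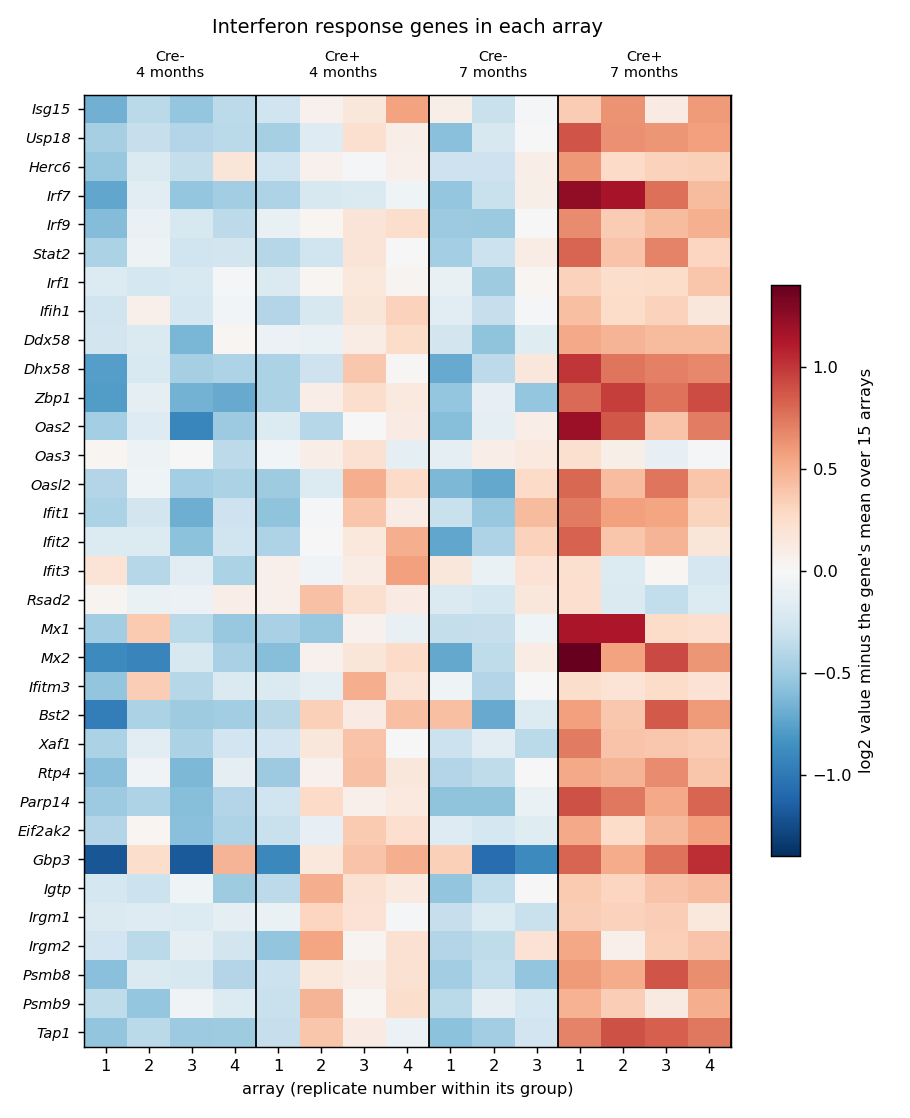
Log2 value of each gene in each of the 15 arrays minus the gene's mean over all arrays, with genes in the order of their roles and arrays grouped by age and genotype. The 4 arrays of 7-month Cre+ kidneys are red in most genes, 4-month Cre+ replicate 1 resembles the Cre- arrays in most genes, and Oas3, Ifit3 and Rsad2 show little contrast in any group.

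The ISG15 system attaches the ubiquitin-like protein Isg15 to other proteins, and all 3 of its measured members rose at 7 months. Isg15 was 4.03, 4.33, 4.17 and 4.34 in the 4-month Cre- kidneys and 4.43, 4.77, 4.86 and 5.27 in the Cre+ kidneys of that age. The groups did not overlap, and the change was 0.61 (SE 0.16, adjusted p = 0.0425). At 7 months its values were 4.79, 4.39 and 4.69 without Cre and 5.06, 5.34, 4.82 and 5.30 with it, a change of 0.51 (SE 0.17, adjusted p = 0.0427), so Isg15 changed no more at 7 months than at 4. Both calls were fragile: the one at 4 months was lost without any 1 of 9 arrays (every 4-month array but Cre+ replicate 1, and 7-month Cre- replicate 3 and Cre+ replicate 1), with adjusted p from 0.0506 to 0.136. The one at 7 months was lost without any 1 of 8 (7-month Cre- replicates 2 and 3, Cre+ replicates 1, 2 and 4, 4-month Cre- replicate 3 and Cre+ replicates 2 and 3), from 0.0511 to 0.194.

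Usp18, the protease that removes Isg15 and restrains signalling at the type I receptor, was 5.47, 5.83 and 6.06 in the 7-month Cre- kidneys and 6.94, 6.69, 6.67 and 6.63 in the Cre+ kidneys. It rose by 0.945 (SE 0.16, adjusted p = 2.9e-04), with a gap between the groups. At 4 months it was 5.59 to 5.73 without Cre and 5.59 to 6.28 with it, a change of 0.31 (adjusted p = 0.303). Herc6, the mouse ligase of the ISG15 system, rose by 0.55 at 7 months (SE 0.16, adjusted p = 0.0166). That call was lost without 7-month Cre- replicate 1 or 2 or Cre+ replicate 1 (adjusted p 0.0702, 0.0777 and 0.053).

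All 4 transcription factors of the response among the members rose at 7 months, and none was called at 4 months. Irf7, which amplifies type I interferon production, was 5.68, 5.92 and 6.31 in the 7-month Cre- kidneys and 7.47, 7.38, 7.00 and 6.67 in the Cre+ kidneys, a rise of 1.16 (SE 0.19, adjusted p = 2.3e-04) or 2.24-fold. At 4 months it was 5.50 to 6.07 without Cre and 5.79 to 6.17 with it, and these ranges overlapped.

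Irf9, the DNA-binding partner of Stat2, was 6.22, 6.20 and 6.72 without Cre and 7.39, 7.08, 7.17 and 7.22 with it at 7 months, a rise of 0.84 (SE 0.15, adjusted p = 4.3e-04). At 4 months its values were 6.12, 6.63, 6.50 and 6.36 against 6.62, 6.75, 6.90 and 6.97, a change of 0.41 with an adjusted p of 0.126. Stat2 was 6.22, 6.39 and 6.80 without Cre and 7.51, 7.09, 7.39 and 6.99 with it at 7 months, a rise of 0.78 (SE 0.17, adjusted p = 0.00255). Its 4-month values were 6.25, 6.62, 6.41 and 6.44 without Cre and 6.29, 6.41, 6.87 and 6.70 with it. Those groups overlapped, and the change was 0.14 (adjusted p = 0.735).

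Irf1, the gamma-type transcription factor, had a smaller change than the other 3: it was 5.75, 5.36 and 5.89 in the 7-month Cre- kidneys and 6.18, 6.10, 6.11 and 6.25 in the Cre+ kidneys. The rise was 0.50 (SE 0.12, adjusted p = 0.00699), and it was 0.35 (adjusted p = 0.0614) without 7-month Cre- replicate 2, the lowest of its group. The 4-month values were 5.67, 5.61, 5.65 and 5.84 against 5.66, 5.89, 6.01 and 5.90, a change of 0.17 (adjusted p = 0.501).

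Nucleic acid sensors start the response when they meet viral or misplaced RNA or DNA. All 4 rose at 7 months, by 0.46 to 1.25, and at 4 months their changes ran from 0.09 to 0.58 with none called. Zbp1, a sensor of left-handed nucleic acids that can trigger necroptosis, was 5.07, 5.72, 5.19 and 5.15 in the 4-month Cre- kidneys and 5.41, 5.94, 6.10 and 5.99 in the Cre+ kidneys. This was a change of 0.58 (SE 0.16, adjusted p = 0.0589), which was not called. At 7 months Zbp1 was 5.31, 5.73 and 5.31 without Cre and 6.64, 6.82, 6.61 and 6.76 with it, a 2.38-fold rise of 1.25 (SE 0.18, adjusted p = 4.9e-05) with a gap between the groups.

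Dhx58, also called LGP2, which modulates the other RNA sensors, was 4.19, 4.53 and 5.06 in the 7-month Cre- kidneys and 5.90, 5.65, 5.60 and 5.57 in the Cre+ kidneys, a rise of 1.09 (SE 0.20, adjusted p = 7.2e-04). Ddx58, which encodes the RNA sensor RIG-I, was 7.02, 6.71 and 7.11 without Cre and 7.81, 7.75, 7.72 and 7.72 with it. Its rise of 0.80 (SE 0.14, adjusted p = 5.0e-04) came with an SD of only 0.04 among the Cre+ kidneys. Ifih1, which encodes the RNA sensor MDA5, rose least, by 0.46 (SE 0.16, adjusted p = 0.042). Its call was lost without 7-month Cre- replicate 1 or 2 or Cre+ replicate 1, 2 or 3 (adjusted p from 0.0651 to 0.169).

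The OAS and IFIT families each divided into members that rose and a member that did not. OAS proteins sense double-stranded RNA, and the active ones make the messenger that activates RNase L. Oas2 was 4.85, 5.31 and 5.54 in the 7-month Cre- kidneys and 6.64, 6.32, 5.85 and 6.16 in the Cre+ kidneys, a rise of 1.01 (SE 0.20, adjusted p = 0.00135). Oasl2 was 5.83, 5.74 and 6.73 without Cre and 7.26, 6.89, 7.21 and 6.85 with it, a rise of 0.95 (SE 0.24, adjusted p = 0.00747), and without 7-month Cre- replicate 2 the change was 0.77 (adjusted p = 0.0563). Oas3 lay between 4.22 and 4.49 without Cre and between 4.24 and 4.58 with it at 7 months, a difference of 0.01 (SE 0.13, adjusted p = 0.966). At 4 months the changes of Oas2, Oas3 and Oasl2 were 0.40, 0.13 and 0.37, none of them called.

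IFIT proteins bind foreign RNA and block its translation. Ifit1 was 5.57, 5.76, 5.33 and 5.72 in the 4-month Cre- kidneys and 5.45, 5.99, 6.40 and 6.12 in the Cre+ kidneys, with Cre+ replicate 1 inside the Cre- range (change 0.40, adjusted p = 0.363). At 7 months it was 5.70, 5.48 and 6.46 without Cre and 6.74, 6.59, 6.57 and 6.32 with it. The rise was 0.68 (SE 0.22, adjusted p = 0.0357), although Cre- replicate 3 lay above the lowest Cre+ kidney. Ifit2 rose by 0.74 (SE 0.23, adjusted p = 0.0283), also with overlap. Both calls were lost without 7-month Cre- replicate 1 or 2 or Cre+ replicate 1 or 3, and that of Ifit1 also without Cre+ replicate 2 (adjusted p from 0.0668 to 0.20 for Ifit1 and from 0.0545 to 0.16 for Ifit2).

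Ifit3 was 5.94 to 6.24 in the 7-month Cre- kidneys and 5.80 to 6.26 in the Cre+ kidneys, a change of -0.13 (SE 0.17, adjusted p = 0.661). At 4 months its change was 0.38 (SE 0.16, adjusted p = 0.239), close to that of the other IFIT genes, and the difference between its effects at 7 and 4 months was -0.51 (unadjusted p = 0.0447, adjusted p = 0.30). Rsad2, which encodes viperin, an enzyme that makes a chain-terminating nucleotide, was likewise 6.75 to 7.15 without Cre and 6.65 to 7.23 with it at 7 months, a change of -0.03 (SE 0.14, adjusted p = 0.923). Ifit3, Rsad2 and Oas3 are commonly counted among the most inducible type I genes, and each has an ISRE-type match in the stretches printed above. These values do not show that the 3 genes did not change: with these standard errors a small change would not be called.

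**Figure D3:**
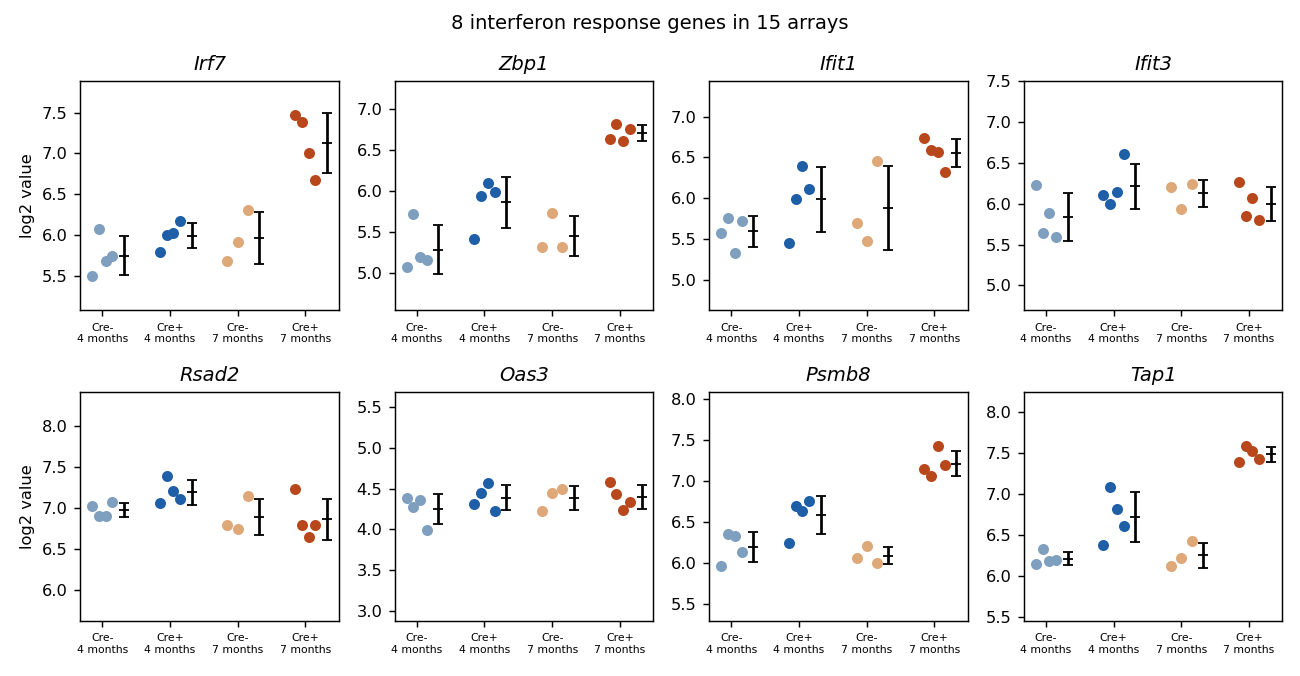
Log2 values of 8 members in each of the 15 arrays, with the group mean and SD as bars, on vertical axes of equal span and different centre. In Irf7, Zbp1, Psmb8 and Tap1 the 7-month Cre+ kidneys lie above every other kidney, in Ifit1 the lowest of them lies below 7-month Cre- replicate 3 and 4-month Cre+ replicate 3, and in Ifit3, Rsad2 and Oas3 the groups overlap throughout.

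Of 9 further antiviral effectors 7 rose at 7 months and 1, Parp14, at 4 months. Parp14, an ADP-ribosyltransferase, was 6.73, 6.80, 6.64 and 6.82 in the 4-month Cre- kidneys and 6.95, 7.50, 7.30 and 7.37 in the Cre+ kidneys, with no overlap (change 0.53, SE 0.13, adjusted p = 0.0327). Leaving out any 1 of 7 arrays ended that call (adjusted p from 0.0506 to 0.121): they were all the 4-month arrays except Cre+ replicate 1. At 7 months Parp14 was 6.67, 6.67 and 7.14 without Cre and 8.13, 7.97, 7.76 and 8.05 with it, a 2.22-fold rise of 1.15 (SE 0.14, adjusted p = 1.6e-05).

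Mx1 and Mx2 encode dynamin-like GTPases that trap viral nucleocapsids. Mx2 was 3.40, 3.77 and 4.22 in the 7-month Cre- kidneys and 5.57, 4.68, 5.05 and 4.74 in the Cre+ kidneys, a rise of 1.21 (SE 0.25, adjusted p = 0.00183). Mx1 was 3.16, 3.17 and 3.44 without Cre and 4.64, 4.63, 3.75 and 3.73 with it, a rise of 0.93 (SE 0.25, adjusted p = 0.0117) in which replicates 1 and 2 stood well above replicates 3 and 4. Outside the 7-month Cre+ kidneys the group means of Mx1 were 3.24 to 3.26, near the values that Y-linked genes gave in arrays where they were lowest (single genes up to 3.45).

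Bst2, or tetherin, which holds budding virions at the cell surface, was 4.90, 5.43, 5.37 and 5.38 in the 4-month Cre- kidneys and 5.48, 6.20, 5.98 and 6.29 in the Cre+ kidneys. The groups did not overlap, and the change of 0.72 (SE 0.21) was the largest of any member at that age, with an adjusted p of 0.0794. At 7 months Bst2 was 6.29, 5.16 and 5.68 without Cre and 6.44, 6.25, 6.73 and 6.46 with it, a rise of 0.76 (SE 0.23, adjusted p = 0.0235) with overlap through Cre- replicate 1. It was not called without 7-month Cre- replicate 2 or 3 or Cre+ replicate 3 (adjusted p 0.168, 0.0615 and 0.0678).

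Rtp4 rose by 0.76 at 7 months (adjusted p = 0.00729), Xaf1, a pro-apoptotic partner of XIAP, by 0.74 (adjusted p = 0.00111), and Eif2ak2, the kinase PKR that stops translation on sensing double-stranded RNA, by 0.66 (adjusted p = 0.00621). Ifitm3, which blocks the entry of viruses at endosomes, was 7.86 to 8.27 without Cre and 8.46 to 8.53 with it. Its groups did not overlap, but the change of 0.38 (SE 0.19) had an adjusted p of 0.185.

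Interferon-inducible GTPases take part in the defence against parasites and bacteria that live in vacuoles. Igtp, also called Irgm3, rose by 0.67 (SE 0.17, adjusted p = 0.00843), with an adjusted p of 0.0542 without 7-month Cre- replicate 1, and Irgm1 rose by 0.57 (SE 0.11, adjusted p = 7.8e-04). Irgm2 changed by 0.53 (SE 0.20, adjusted p = 0.0758) and was not called. Gbp3, a guanylate-binding protein, had the largest change of any member at 7 months and also the largest error: it rose by 1.32 (SE 0.42, adjusted p = 0.0317). Its values were 6.94, 5.54 and 5.72 in the Cre- kidneys and 7.42, 7.13, 7.37 and 7.64 in the Cre+ kidneys. The call was lost without 7-month Cre- replicate 2 or 3 or Cre+ replicate 1, 3 or 4 (adjusted p from 0.0571 to 0.152).

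The wide spread of Gbp3 followed another division of the arrays. Eif2s3y, Kdm5d and Uty, genes of the Y chromosome, were high in 8 arrays (mean at least 6.92) and low in 7 (mean at most 2.98), with 2 of each kind in every group except the 7-month Cre- kidneys, which had 2 high and 1 low. Over the Cre- kidneys of both ages Gbp3 was 5.41, 5.43, 5.54 and 5.72 where the Y-linked genes were high and 6.86, 7.08 and 6.94 where they were low. The difference was 1.43 (SE 0.20, adjusted p = 5.6e-04), and Gbp3 was the only 1 of 33 members called in that comparison, in which 251 of all 22180 genes were higher and 450 lower. In the Cre+ kidneys the difference was 0.53 (adjusted p = 0.148).

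Within arrays of high Y-linked values Gbp3 was higher in Cre+ kidneys by 0.82 in the younger mice (adjusted p = 0.096) and by 1.65 in the older ones (adjusted p = 3.4e-04). Within arrays of low values the differences were 0.09 (adjusted p = 0.886) and 0.56 (adjusted p = 0.267). The 2 kinds were separated after the data were seen. Tap1 had no such division: it was called at 7 months within both kinds. Over all members, 23 were called at 7 months within the high arrays and 17 within the low ones, with 32 and 31 positive changes, beside 7.85% and 8.14% of all genes called higher. The low arrays include a single 7-month Cre- kidney.

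**Figure D4:**
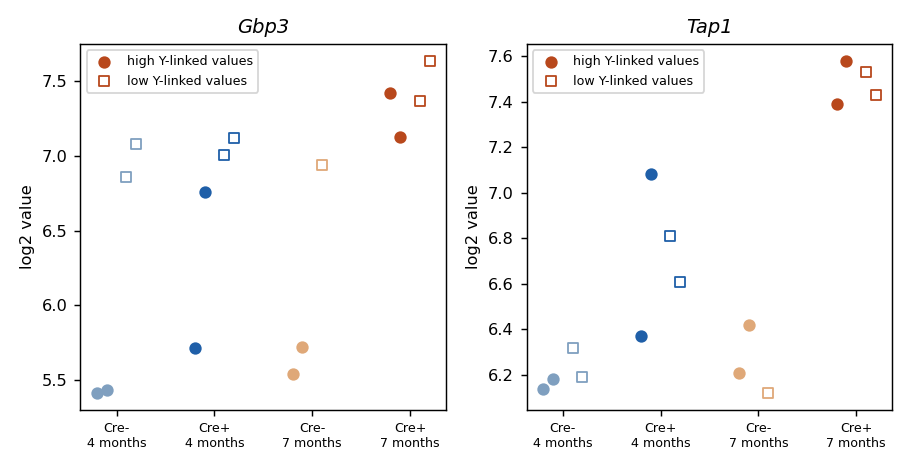
Log2 values of Gbp3 (left) and Tap1 (right) in the 15 arrays by group, with filled circles for arrays of high Y-linked values and open squares for arrays of low ones. In Cre- kidneys all open squares of Gbp3 lie at 6.86 or above and all filled circles at 5.72 or below, whereas those of Tap1 are mixed between 6.12 and 6.42.

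The antigen-processing genes, all gamma-type, rose at 7 months in 3 of 3, and Tap1 and Psmb8 had the smallest p of all members at that age. The immunoproteasome subunits Psmb8 and Psmb9 cut proteins into peptides suited to MHC class I. Psmb8 was 5.96, 6.35, 6.33 and 6.14 in the 4-month Cre- kidneys and 6.25, 6.70, 6.64 and 6.76 in the Cre+ kidneys, a change of 0.39 (SE 0.13, adjusted p = 0.113). At 7 months it was 6.06, 6.21 and 6.0 without Cre and 7.15, 7.07, 7.43 and 7.20 with it, a rise of 1.13 (SE 0.14, adjusted p = 1.3e-05). Its difference between the ages, 0.74 (SE 0.19), was the only 1 of 33 members to pass the threshold for that difference, at an adjusted p of 0.0494. Without any 1 of 13 of the 15 arrays it did not pass (adjusted p from 0.0545 to 0.107), the exceptions being 4-month Cre- replicate 1 and Cre+ replicate 4.

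Tap1 was 6.14, 6.32, 6.18 and 6.19 in the 4-month Cre- kidneys and 6.37, 7.08, 6.81 and 6.61 in the Cre+ kidneys. The groups did not overlap, and the rise was 0.51 (SE 0.13, adjusted p = 0.0339). It was lost without any 1 of 6 arrays, 4-month Cre- replicates 1, 3 and 4 and Cre+ replicates 2, 3 and 4 (adjusted p from 0.0545 to 0.116). At 7 months Tap1 was 6.12, 6.21 and 6.42 without Cre and 7.39, 7.58, 7.53 and 7.43 with it. This 2.35-fold rise of 1.23 (SE 0.14, adjusted p = 5.7e-06) had the smallest adjusted p of all members. Psmb9, which shares the promoter stretch printed above with Tap1, was 5.0 to 5.24 without Cre and 5.50 to 5.89 with it, a rise of 0.62 (SE 0.17, adjusted p = 0.0106).

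The division into type I-type and interferon gamma-type genes was set against these values over the 4 groups. At 7 months 23 of 28 type I-type genes and 5 of 5 gamma-type genes rose, with median changes of 0.76 and 0.67. At 4 months 2 of 28 and 1 of 5 rose, with medians of 0.37 and 0.40. With each gene centred on its mean over the 15 arrays, the type I-type genes averaged -0.34 ± 0.15 (SD, n = 4) in the 4-month Cre- kidneys and 0.01 ± 0.25 (n = 4) in the Cre+ kidneys. At 7 months they averaged -0.23 ± 0.19 (n = 3) without Cre and 0.50 ± 0.13 (n = 4) with it. The gamma-type genes averaged -0.31 ± 0.07, 0.06 ± 0.26, -0.33 ± 0.11 and 0.50 ± 0.04 in the same order. The mean of 1 class minus the other (type I-type minus gamma-type) was -0.03 ± 0.17, -0.05 ± 0.19, 0.10 ± 0.10 and 0.00 ± 0.14. The centring makes this difference average 0 over the 15 arrays, so these values show only how it varied between groups. Its group means lay within about 1 SD between arrays, which does not show that the classes are alike. No test was made of these lists.

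**Figure D5:**
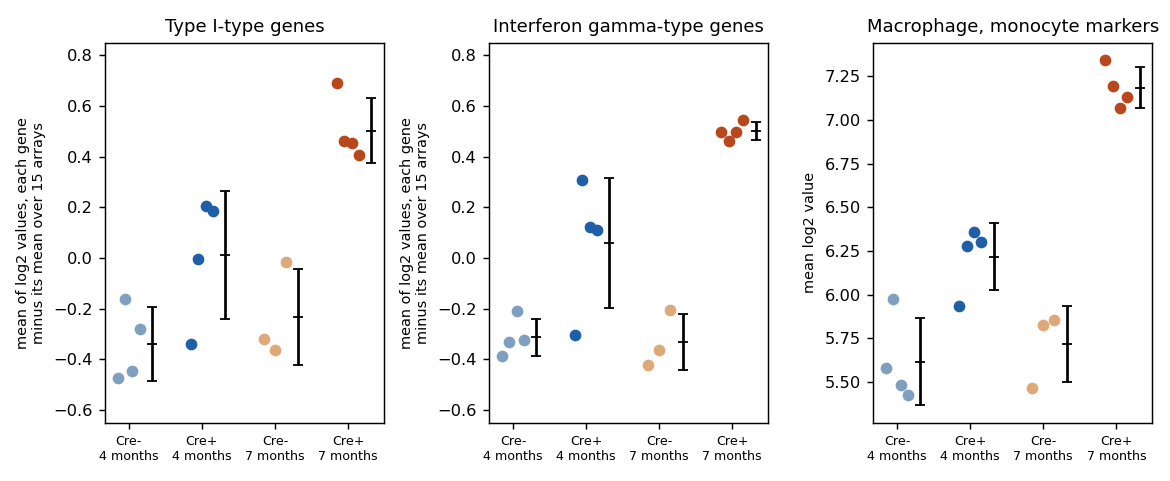
Mean over the 28 type I-type genes (left) and the 5 gamma-type genes (middle), each gene centred on its mean over 15 arrays, and mean log2 level of 18 macrophage and monocyte markers (right), per array, with the group mean and SD as bars. The 7-month Cre+ kidneys are highest in all 3 panels, and 4-month Cre+ replicate 1 lies within the range of the Cre- kidneys of its age in each.

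Array by array the classes were partly alike. The 4-month Cre+ replicate 1 had a type I-type mean of -0.34 and a gamma-type mean of -0.30, against -0.004 to 0.205 and 0.112 to 0.309 in the other 3 of its group. The 7-month Cre- replicate 3 had the highest means of its group, -0.02 and -0.21. In other arrays they parted: 4-month Cre+ replicate 2 was the highest of its group in the gamma-type genes, at 0.309, and not in the type I-type genes, at -0.004. Among the 7-month Cre+ kidneys replicate 1 was the highest in the type I-type genes, at 0.69 against 0.41 to 0.46, and not in the gamma-type genes, at 0.50 within a range of 0.46 to 0.55.

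Whether the effect of Cre differed between the ages was tested directly. Of the 33 members 29 had a larger effect at 7 months, with a median difference of 0.38 beside -0.08 over all genes, but only Psmb8 passed the threshold, beside 0.96% of all genes in that direction and 1.18% in the other, and 13 had an unadjusted p under 0.05. Next by p were Tap1 (difference 0.73, adjusted p = 0.0566) and Irf7 (0.92, adjusted p = 0.0804). For the rest, being called at 7 months and not at 4 months is not a shown difference. These differences use the same arrays as the comparisons above and are not separate evidence.

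Between the ages, 12 members differed in Cre+ kidneys and 0 in Cre- kidneys, and the test that these age changes differ by genotype is the one just given. Within Cre+ kidneys Usp18, Irf7, Stat2, Ddx58, Dhx58, Zbp1, Oas2, Mx1, Mx2, Parp14, Psmb8 and Tap1 were higher at 7 than at 4 months, beside 4.12% of all genes, and 16 members did not overlap, beside 5.79%. The largest of these changes was that of Irf7, at 1.14 (SE 0.18, adjusted p = 5.6e-04). The call of Ddx58 was lost without any 1 of 10 arrays: 4-month Cre- replicates 1 and 2 and Cre+ replicates 1, 2 and 3, and 7-month Cre- replicate 1 and all 4 Cre+ replicates (adjusted p from 0.0542 to 0.118). In a fit of the Cre+ kidneys alone with the replicate number as a block, added after seeing the data, 13 members were called, the further one being Gbp3 (0.74, adjusted p = 0.0397). In the Cre+ kidneys the replicate number runs with the Y-linked division, since replicates 1 and 2 were high and 3 and 4 low at both ages. With the block over all 4 groups Ddx58 was not called (adjusted p = 0.052). The call of Mx1 was lost without 7-month Cre+ replicate 1 or 2 (0.05 and 0.0527), and that of Mx2 without 4-month or 7-month Cre+ replicate 1 (0.0579 and 0.0607). Within Cre- kidneys limma called 0 members, beside 0.00451% of all genes higher, 1 had an unadjusted p under 0.05 (Isg15, 0.40 higher at 7 months), and the fit without moderation of the variance also called 0.

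Other genes of the pathway were read from lists of 101 genes, of which 93 were measured. At 7 months 43 of the 93 rose and 4 fell, beside 11.7% and 10.8% of all genes. At 4 months 8 rose and 0 fell, beside 2.73% and 0.803%. The same shares stand beside each list below. Of 10 interferon genes 0 rose at either age and 1 fell at 7 months, counts that lie near those shares. Ifnb1, interferon beta, was 2.34 to 2.72 in the 7-month Cre- kidneys and 2.24 to 2.44 in the Cre+ kidneys (change -0.14, adjusted p = 0.484). Ifng, interferon gamma, was 3.72 to 3.94 and 3.67 to 4.24 (change 0.09, adjusted p = 0.712). Ifnl3, an interferon lambda, fell by 0.83 (SE 0.21, adjusted p = 0.00645), from 5.53 to 5.77 without Cre to 4.54 to 4.90 with it. The table gives no detection calls, so whether these transcripts were present at all was not tested.

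Of the 6 receptor genes 5 rose in Cre+ kidneys at 7 months and 0 were called at 4 months, when all 6 changes were positive (median 0.27) and 4 had an unadjusted p under 0.05. Ifngr1, which binds interferon gamma, rose by 1.21 (SE 0.15, adjusted p = 1.8e-05), from 8.31 to 8.93 in the Cre- kidneys to 9.74 to 10.07 in the Cre+ kidneys. Its partner Ifngr2 rose by 0.85 (adjusted p = 2.0e-05), the lambda receptor Ifnlr1 by 0.72 (adjusted p = 4.5e-04), and Ifnar2 and Ifnar1 of the type I receptor by 0.59 and 0.46 (adjusted p = 5.8e-04 and 0.00986). The subunit Il10rb, shared with other cytokines, was 0.31 higher (adjusted p = 0.16). Of the receptor kinases Tyk2 rose by 0.47 (adjusted p = 0.0207), a call lost without 7-month Cre- replicate 1 or 2 or Cre+ replicate 3 (adjusted p from 0.0539 to 0.103), while Jak1 and Jak2 changed by 0.05 and 0.22 (adjusted p = 0.797 and 0.257).

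Sensing adaptors and kinases rose in 4 of 13 genes at 7 months and 1 fell, beside 11.7% and 10.8% of all genes. Sting1, the adaptor of the cytosolic DNA sensor, was called at both ages: at 4 months the rise was 0.70 (SE 0.17, adjusted p = 0.0316). At 7 months it was 1.67 (SE 0.19, adjusted p = 5.7e-06), from 5.61 to 6.17 without Cre to 7.37 to 7.77 with it. The call at 4 months was lost without any 1 of 5 arrays, Cre- replicates 1 and 3 and Cre+ replicates 2, 3 and 4 (adjusted p from 0.0612 to 0.12). Ikbke, a kinase of Irf3 and Irf7, rose by 0.92, Tlr7 by 0.81 and Tlr9 by 0.49. Mavs, the adaptor of the RNA sensors, fell by 0.31 (adjusted p = 0.0357). Of 11 negative regulators 5 rose at 7 months, the largest being Socs3, an inhibitor of receptor kinases. Socs3 rose by 0.65 in the younger mice (adjusted p = 0.00643) and by 0.97 in the older ones (adjusted p = 6.1e-05). Its call in the younger mice was lost when the mean of its entries was used. The nucleotide hydrolase Samhd1 rose by 0.69 at 7 months. The calls of Tlr9 and Mavs at 7 months were each lost without any 1 of 5 arrays of that age, those of Tlr9 being Cre- replicates 1, 2 and 3 and Cre+ replicates 1 and 4 and those of Mavs Cre- replicates 1 and 3 and Cre+ replicates 1, 2 and 3.

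Among the chemokines that interferons induce, Cxcl9, Cxcl10 and Ccl5 were called at both ages and Cxcl11 at neither. The rise of Cxcl9 was 0.91 in the younger mice (adjusted p = 0.0386) and 1.27 in the older mice (adjusted p = 0.0012). That of Ccl5 was 0.81 and then 1.30 (adjusted p = 0.036, then 3.5e-04), and that of Cxcl10 was 0.50 and then 0.72 (adjusted p = 0.0177, then 2.8e-04). Each of the 3 calls at 4 months was lost without at least 4 of the single arrays of that age: Cxcl9 without any but Cre+ replicates 1 and 3, Ccl5 without any but Cre- replicate 3 and Cre+ replicate 1, and Cxcl10 without Cre- replicate 2 or 3 or Cre+ replicate 2 or 3. Cxcl11 changed by -0.01 and -0.08.

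Of 23 further interferon-inducible genes 1 rose at 4 months (Trim30a, 0.70) and 13 at 7 months, with Oas1g (1.72), Ifi204 (1.69), Ddx60 (1.28) and Sp110 (1.21) as the largest, while 0 fell. Of 20 further genes of MHC class I and the gamma response 2 rose at 4 months, B2m (0.67, adjusted p = 0.00398) and H2-K1 (0.61, adjusted p = 0.0146), the latter not called without Cre- replicate 1 or Cre+ replicate 3. At 7 months 12 of the 20 rose, among them the guanylate-binding Gbp8 (1.61), H2-K1 (1.58), H2-Q4 (1.23) and Nlrc5 (1.21), the transactivator of MHC class I genes. Psme2, a subunit of the proteasome activator PA28, fell by 0.37 (adjusted p = 0.0202), and was not called without 7-month Cre- replicate 3 or Cre+ replicate 3 or 4. Psmb5, whose place in the proteasome Psmb8 takes, fell by 0.40 (adjusted p = 0.0465), a call lost without any 1 of 11 arrays: 4-month Cre- replicate 2, all 4 Cre+ replicates of that age, all 3 Cre- replicates at 7 months and Cre+ replicates 1, 2 and 4. Psmb6 and Psmb7, replaced by Psmb9 and by Psmb10, changed by -0.07 and -0.08 (adjusted p = 0.702 and 0.746).

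Markers of several leukocyte types were also higher in Cre+ kidneys. Beside 2.73% and 11.7% of all genes, 5 of 18 macrophage and monocyte markers rose at 4 months and 18 at 7 months, with median changes of 0.57 and 1.495. Their mean level per array was 5.43 to 5.98 and 5.94 to 6.36 in the Cre- and Cre+ kidneys at 4 months, and 5.47 to 5.85 and 7.07 to 7.34 at 7 months. The 4-month Cre+ replicate 1 had the lowest of its group, 5.94. Of 12 T and NK cell markers 2 rose at 4 months and 6 at 7 months, with mean levels per array of 3.94 to 4.07, 4.13 to 4.50, 3.86 to 4.01 and 4.53 to 4.99 in the same order. Of 5 B cell markers 0 and 3 rose, with mean levels of 4.07 to 4.20, 4.01 to 4.34, 3.92 to 4.23 and 4.34 to 5.05. Within the 7-month Cre+ kidneys the marker means did not all follow the type I-type genes. Replicate 1, highest in those genes, was highest in macrophage and monocyte markers (7.34) and lowest in T and NK cell (4.53) and B cell markers (4.34). Of 6 dendritic cell markers only Flt3 rose, at both ages, which at 7 months is near the share of all genes. Siglech, which marks plasmacytoid dendritic cells, an abundant source of type I interferon, changed by 0.03 at 7 months (adjusted p = 0.931).

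Of 11 kidney tubule and glomerulus markers 1 fell at 4 months and 7 at 7 months, beside 0.803% and 10.8% of all genes. The mean level of these markers per array went from 10.07 to 10.31 without Cre to 9.50 to 9.70 with it at 7 months. Of 9 endothelial markers 0 rose and 2 fell at 7 months, beside 11.7% and 10.8% of all genes. The scale has no true zero, so it cannot be said that any marker was at 0. The part of these cell types in the rise of the interferon response genes was not tested.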

How the data were processed

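The authors deposited log2 expression values of 15 Affymetrix Mouse Gene 2.0 ST arrays, 1 per mouse, made with RMA in Partek 6.6 per the submitters' processing notes; that the scale is log2 was read from the values (1.04 to 13.12). The genome build of the array annotation and the hybridisation batches were not given in the sources used here. Of 41345 entries, 23521 carried 1 gene symbol, 1814 several and 16010 none. The entry of highest mean was kept for the 1082 genes with several, leaving 22180 genes, and 23328 of the entries matched RefSeq names.

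Group means of the 4 groups were fitted to all 22180 genes in R 4.3.3 by the lmFit and eBayes functions of limma 3.58.1, two-sided, with Benjamini-Hochberg adjustment over all genes and a threshold of 0.05. SE is the moderated standard error. Tables and figures used Python 3.11.15, pandas 2.3.3, numpy 2.4.6 and matplotlib 3.10.9. The fitting was tested on simulated data. Promoter windows were RefSeq's on GRCm38.p6.

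The members and gene lists were chosen with earlier results of these data known. Any member could be named. Values of each array were given for up to 16 members called in a Cre comparison or in the difference between ages, by size of change, and for Irf1, Stat2, Irf9, Isg15 and Ifit1. In the pathway lists up to 4 rising and 4 falling called genes per list could be named, besides ligands, receptors, Cxcl9 and Cxcl10; others named there (Jak1, Jak2, Cxcl11, Psmb6, Psmb7 and Siglech) were chosen after their values were seen. Alternatives were quantile normalization, median centring, a filter on dim genes (4.899 in at least 3 arrays), the mean of a gene's entries, trend and robust moderation, a plain linear model, fits to 2 groups only, a replicate block and leaving out each array. A Y-linked covariate and fits within arrays of high or low Y-linked values were also used. Same-numbered Cre+ kidneys of 4 and 7 months deviated together (correlations from 0.167 to 0.298 in 4 of 4 pairs), and a block on the number was fitted for that comparison. These pairs also matched in Y-linked level, high in replicates 1 and 2 and low in 3 and 4. Different-numbered Cre+ pairs of matching level correlated at 0.182 to 0.373, and those of unlike level at -0.355 to -0.139. The correlations therefore do not show that the numbers pair the arrays, and no label gives such a pairing.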

Additional observations from a re-analysis of the deposited data

Results flagged for a closer look

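In 99 groups of values (33 members in the 3 groups of 4 arrays), 3 had an array far from the other 3 by Dixon's criterion at 95%, and chance gives about 1 in 20. Oasl2 was 6.40 in 4-month Cre- replicate 2, against 5.98 to 6.05 in the others. Bst2 was 4.90 in 4-month Cre- replicate 1, against 5.37 to 5.43. Xaf1 was 6.39 in 7-month Cre+ replicate 1, against 6.02 to 6.06.

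The effect of Cre differed between 7 and 4 months, by limma's test of that difference with adjusted p under 0.05, in 1 member and 5 genes of the pathway lists. The difference (7 months minus 4 months) was 0.74 for Psmb8. It was 0.83 for Sp110, a nuclear body protein, 0.74 for Tor3a, 1.62 for Gbp8, 0.96 for H2-K1, a class I heavy chain, and 0.95 for Nlrc5. These calls were fragile: leaving out 1 array ended that of Psmb8 for 13 of the 15 arrays, of Tor3a for 12, of Nlrc5 for 11, of Sp110 for 9 and of Gbp8 for 3, and that of H2-K1 for 0. A plain linear model called 0 of the 5 pathway genes. The call of Sp110 was also lost when the mean of its entries was used, and those of Psmb8 and Tor3a with a replicate block.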

How the results depend on the processing

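In both Cre comparisons 0 of 33 members fell under any alternative run, and no called value changed sign. Of the 28 members called at 7 months, 18 were called in every planned setting and without any 1 array, and of the 3 called at 4 months 0 were. The count of interferon genes higher in Cre+ at 4 months, 3, was 1 with median centring, 0 with a plain linear model, 1 with 2 groups only and 5 with a Y-linked covariate. It was 0 within arrays of high and 0 within arrays of low Y-linked values, and 0 to 10 with single arrays left out. The count of interferon genes higher in Cre+ at 7 months, 28, was 17 within arrays of low Y-linked values and 19 to 29 with single arrays left out. The count of interferon genes with a different Cre effect at 7 and 4 months, 1, was 2 with median centring, with the filter on dim genes, with trend and robust variance and with the Y-linked covariate. It was 0 with the plain linear model and within arrays of high or low Y-linked values, and 0 to 2 with single arrays left out. The count of interferon genes different between 7 and 4 months in Cre+, 12, was 2 within arrays of low Y-linked values. The median change of interferon gamma-type genes at 7 months, 0.67, was 0.97 within arrays of low Y-linked values, and 0.56 to 0.82 with single arrays left out. The fits within the 2 kinds of arrays were added after seeing the data, and hold 1 or 2 arrays per group, so that a lone array is assumed to vary like the others; the cause of the other shifts was not tested. A fit to 2 groups only gives no value for the difference between ages.

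Replicate numbers recur across the groups. Same-numbered arrays correlated at -0.47 to 0.30 in their deviations from the group means (median 0.17 over 21 pairs), and arrays of different number at a median of -0.09 (63 pairs). In both Cre comparisons and in the age comparison of Cre- kidneys, same-numbered arrays correlated above 0 where they matched in Y-linked level and below 0 where they did not. In the Cre+ kidneys all same-numbered pairs matched in that level. The correlations therefore do not show that the number pairs the arrays in any comparison. With a replicate block 3 members were called at 4 months, 22 at 7 months, 1 in the difference between ages and 11 between ages in Cre+ kidneys, or 13 in the fit of Cre+ kidneys alone. Precision is limited by 3 or 4 arrays per group.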
